A study of Mus musculus with 2 samples.

Results

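The genes described here are those of the TGF-beta, BMP and activin pathway, measured in the skin of keratin 5 knockout and of wild type mice at birth. They were chosen by symbol: a gene belongs to the set when its symbol starts with Tgfb, Bmp (without Bmp1), Smad, Inha, Inhb, Acvr, Ltbp or Gdf and a digit, when it is one of Id1 to Id4, or when it is Fst, Fstl1, Nog, Chrd, Grem1, Tgif1, Ski or Skil. Endoglin is not in the set. This gives 59 of the 8251 genes with a probe set of their own on the array, read by 70 of 12422 probe sets (a probe set is the group of short probes that reads a transcript on such an array). By role they are 22 ligands, 11 receptors, 9 extracellular inhibitors and carriers, 5 intracellular effectors, 5 intracellular inhibitors, 6 target genes and Bmp2k, a kinase gene named for its induction by BMP2.

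The knockout mice carried a homozygous loss of keratin 5 (K5-/-), the keratin that pairs with keratin 14 in basal keratinocytes, and model epidermolysis bullosa simplex (EBS), a disorder in which these cells rupture and the skin blisters. The other mice were wild type. Skin of 6 neonatal animals per group was frozen, and the RNA of each group was pooled and read on 1 array, so there are 2 arrays and no replicates, no value has an error between animals, and no test was run. The series asked which genes differ in skin without keratin 5.

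TGF-beta, BMP and activin ligands bind pairs of receptor kinases, which phosphorylate Smad proteins. The phosphorylated Smads join Smad4, enter the nucleus and bind DNA. In skin, TGF-beta restrains the division of keratinocytes and promotes matrix synthesis in the dermis, BMPs act in epidermal differentiation and in the growth cycle of the hair follicle, and activins take part in wound repair. Follistatin and noggin keep activins and BMPs from their receptors outside the cell, and Smad6, Smad7, Ski and Skil hold the signal back inside it.

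The deposited values are intensities from MAS5, the Affymetrix algorithm that summarises each probe set as 1 signal, scaled by the authors to a common level. Signals under 246.7, the 40th percentile of all values, were raised to that floor. A gene counted as measured when it was above the floor on at least 1 array. The result for each measured gene is the log2 ratio of its signal in knockout skin over that in wild type skin, where 1 stands for a 2-fold difference. A gene above the floor in 1 pool alone has a bound, written as at least that large. The only measure of technical error is how far probe sets of one gene differ, a standard deviation of 0.30 on the log2 scale over 838 genes, which holds no variation between animals or pools.

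Markers of other cells differed between the arrays. Krt5, Krt14 and Krt15, the basal keratins, were at the floor on both arrays, with signals of at most 81.2, so the Krt5 signal does not check the labels. The 3 measured basal keratinocyte markers, Trp63, Itga6 and Itgb4, were all lower in the knockout, and the summed signal of the 6 markers on the array was 5099 in K5-/- skin and 7194 in wild type skin. Suprabasal keratinocyte markers ran the other way, with 4 of 5 higher, a median log2 ratio of 0.29 and a sum of 184805 in K5-/- skin and 158386 in wild type skin; Ivl, the cornified envelope gene involucrin, was 2.41-fold higher. All 8 macrophage markers were higher, with a sum of 12924 in K5-/- skin and 8667 in wild type skin, and 6 of 8 dermal fibroblast and matrix markers were higher, with a sum of 180355 in K5-/- skin and 155267 in wild type skin. Endothelial markers were higher in 4 of 6 cases (4615 in K5-/- skin, 4084 in wild type skin) and hair follicle markers in 7 of 7 measured (23564 in K5-/- skin, 17576 in wild type skin). All 8 skeletal muscle markers were higher, with a sum of 78076 in K5-/- skin and 66925 in wild type skin. Adipocyte markers were higher in 2 of 3 cases (12516 in K5-/- skin, 10989 in wild type skin). Smooth muscle and pericyte markers were higher in 3 of 5 measured (5062 in K5-/- skin, 5183 in wild type skin). Melanocyte markers were higher in 1 of 3 measured (6147 in K5-/- skin, 6611 in wild type skin) and Schwann cell markers in 0 of 2. Over all measured genes 53.9% were higher. The source label reads epidermis, but dermal collagens and skeletal muscle genes gave high signals on both arrays, with Col1a1 at 48707 in K5-/- skin and 39256 in wild type skin and Acta1 at 41506 in K5-/- skin and 39728 in wild type skin. The tissue is therefore called skin here.

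Most of the pathway differed little between the pools. Of the 59 genes, 39 were measured (66.1%, against 72.4% of all genes) and 20 stayed at the floor in both pools. Of the 39, 36 lay above it in both pools and 3 in the knockout alone. Of the measured genes, 24 (61.5%) were higher and 15 lower in the knockout, against 53.9% higher over all 5976 measured genes. The 3 genes measured through the knockout alone, Bmpr2, Inhbc and Smad5, could only come out higher, so their direction was set by the filter. The median log2 ratio was 0.07, against 0.04 over all measured genes. Over the 36 genes above the floor in both pools it was 0.038, against 0.028 over all genes above the floor in both. No pathway gene reached a 2-fold higher signal, and 1, the follistatin gene Fst, a 2-fold lower one. Over all measured genes 1.54% were higher and 0.703% lower by that threshold, together 2.24%, so neither count stands far from the background. Of the 2-fold different genes of the whole array, 68.7% were higher in the knockout, and 57.2% with quantile normalization. The log2 ratio was under 0.30 in size for 19 of the 39 genes (48.7%, against 58.3% of all measured genes), and at least 0.60 for 5 of them (12.8%, against 12.4% of all). These 5 genes were Fst, Bmp7 and Tgif1, which were lower in the knockout, and Tgfbr3 and Ltbp2, which were higher.

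**Figure D1:**
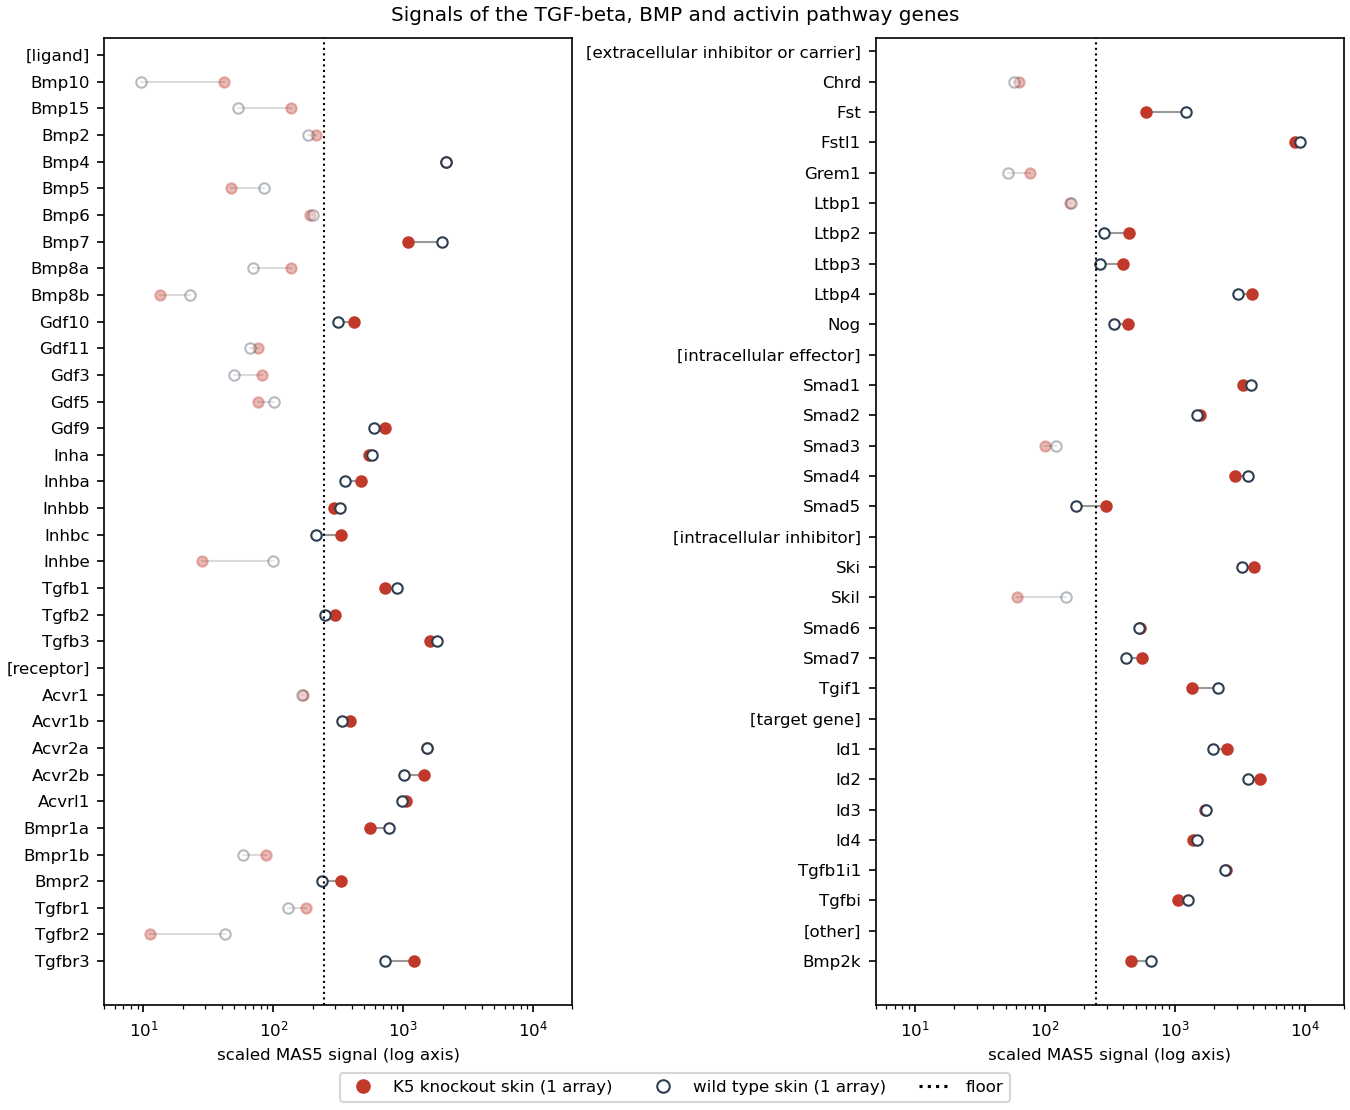
Scaled MAS5 signal (log axis) of each of the 59 pathway genes, by role, with a filled point for K5 knockout skin and an open point for wild type skin, 1 array each. The dotted line is the floor of 246.7, and the 20 genes under it in both pools are drawn pale. Fst and Bmp7 show the widest gaps among genes above the floor in both pools, with the knockout point to the left.

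**Figure D2:**
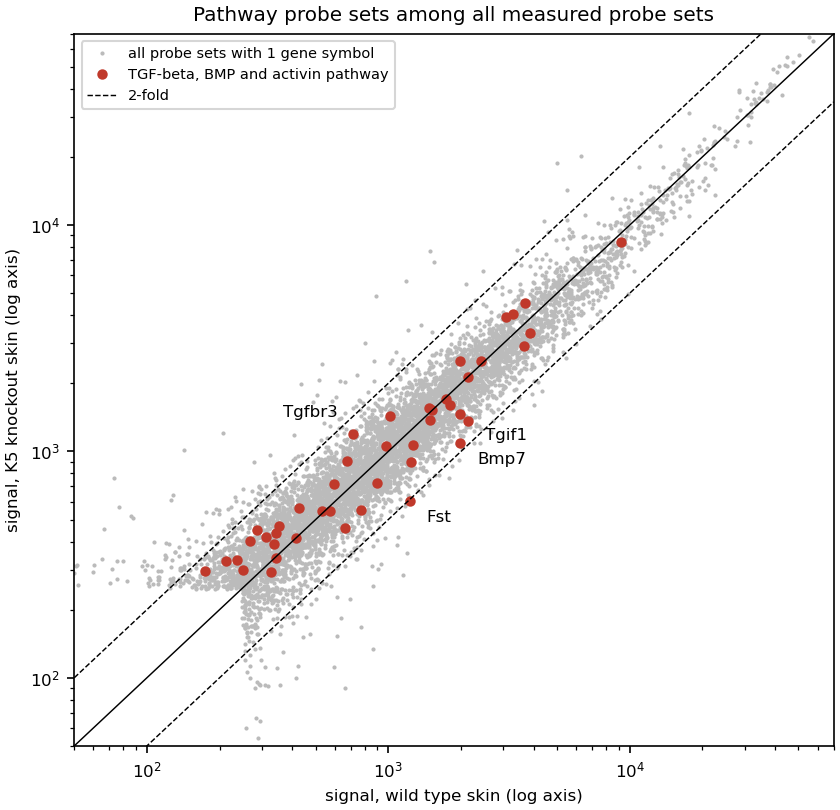
Signal in K5 knockout skin against signal in wild type skin (both axes logarithmic) for the probe sets with 1 gene symbol that are above the floor on at least 1 array, with the pathway probe sets in red. The dashed lines mark 2-fold differences. Fst lies just beyond the lower dashed line, and the other pathway probe sets lie between the lines.

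Among the ligands, Bmp7 stood lowest and the activin subunit gene Inhba was among the highest. Of 22 ligand genes 11 were measured, 6 higher and 5 lower, with a median log2 ratio of 0.00. Bmp7, a BMP ligand made by epithelia, read 1091 in K5-/- skin and 1990 in wild type skin, 1.82-fold lower, and 1.32% of the measured genes had a lower log2 ratio. It was the 1 ligand outside the central 95% of all measured genes, which ran from -0.74 to 0.85.

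Bmp4, a BMP ligand of the dermis and the hair follicle, read 2135 in K5-/- skin and 2129 in wild type skin. Its other probe set read 896 in K5-/- skin and 1237 in wild type skin, a log2 ratio of -0.47, and the mean over both was -0.23, so the direction of Bmp4 is uncertain. Bmp2, Bmp5, Bmp6, Bmp8a, Bmp8b, Bmp10 and Bmp15 were at the floor on both arrays, with Bmp2 at 214 in K5-/- skin and 184 in wild type skin. Of the BMP ligands, only Bmp4 and Bmp7 were thus measured.

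The 3 TGF-beta genes differed in direction. Tgfb1, whose product is the isoform best known from wounds and immune cells, read 725 in K5-/- skin and 899 in wild type skin (log2 ratio -0.31). Tgfb2 read 298 in K5-/- skin and 250 in wild type skin (0.25), just above the floor. Tgfb3, the third isoform, read 1609 in K5-/- skin and 1803 in wild type skin (-0.16), and its other probe set was under the floor on both arrays. None of the 3 log2 ratios was far beyond the 0.30 spread between probe sets of a gene.

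The activin and inhibin subunit genes were divided as well. Inhba, which encodes the subunit of activin A, an activin induced in healing wounds, read 470 in K5-/- skin and 352 in wild type skin (log2 ratio 0.41). Inhbb, the subunit of activin B, read 294 in K5-/- skin and 325 in wild type skin (-0.15), and Inha, the inhibin subunit that opposes activin, read 543 in K5-/- skin and 573 in wild type skin (-0.08). Inhbc was above the floor in the knockout alone, with 329 in K5-/- skin and 212 in wild type skin, a log2 ratio of at least 0.42, and Inhbe stayed under the floor.

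Among the growth and differentiation factor genes, Gdf10, a ligand related to the BMPs, read 419 in K5-/- skin and 312 in wild type skin (log2 ratio 0.42). Gdf9, known as a factor of the oocyte, read 721 in K5-/- skin and 594 in wild type skin (0.28). Both were higher in the knockout by less than 2-fold. Gdf3, Gdf5 and Gdf11 were at the floor on both arrays.

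Receptor genes were mostly higher in the knockout. Of 11, 7 were measured, 6 higher and 1 lower, with a median log2 ratio of 0.21, and none differed 2-fold. That median was 0.16 over the 6 genes above the floor on both arrays, 0.08 with quantile normalization and 0.09 with the lowess correction. It was 0.01 without a filter and 0.43 from plain probe sets only. Over all measured genes 53.9% were higher. Tgfbr3, which encodes betaglycan, a co-receptor that presents TGF-beta and helps inhibin block activin, read 1199 in K5-/- skin and 717 in wild type skin, 1.67-fold higher, with 96.2% of the measured genes at a lower log2 ratio. Acvr2b, a type II receptor for activins, read 1434 in K5-/- skin and 1016 in wild type skin (1.41-fold higher). Bmpr2, the type II receptor for BMPs, was above the floor in the knockout alone, with 332 in K5-/- skin and 237 in wild type skin, a log2 ratio of at least 0.43.

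The 1 lower receptor was Bmpr1a, the type I BMP receptor of epidermis and hair follicle, with 549 in K5-/- skin and 769 in wild type skin, 1.40-fold lower. The activin receptor genes Acvr1b and Acvr2a had log2 ratios of 0.21 and 0.01, and that of Acvr2a turned to -0.03 with quantile normalization and to -0.01 with the lowess correction. Acvrl1, a type I receptor of endothelial cells, was read by 3 probe sets, all with the knockout signal at or above the wild type one: the log2 ratios were 0.11, 0.43 and 0.00, and the first belongs to the brightest. Acvrl1 was thus higher or level in all 3, and its size is uncertain. The receptor kinases of TGF-beta itself were not measured: Tgfbr1 read 179 in K5-/- skin and 130 in wild type skin, and Tgfbr2 11.2 in K5-/- skin and 42.3 in wild type skin. Acvr1 and Bmpr1b were at the floor on both arrays too. A probe set at the floor does not show that its gene was silent, since Krt14, an abundant keratin of basal keratinocytes, was there as well.

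**Figure D3:**
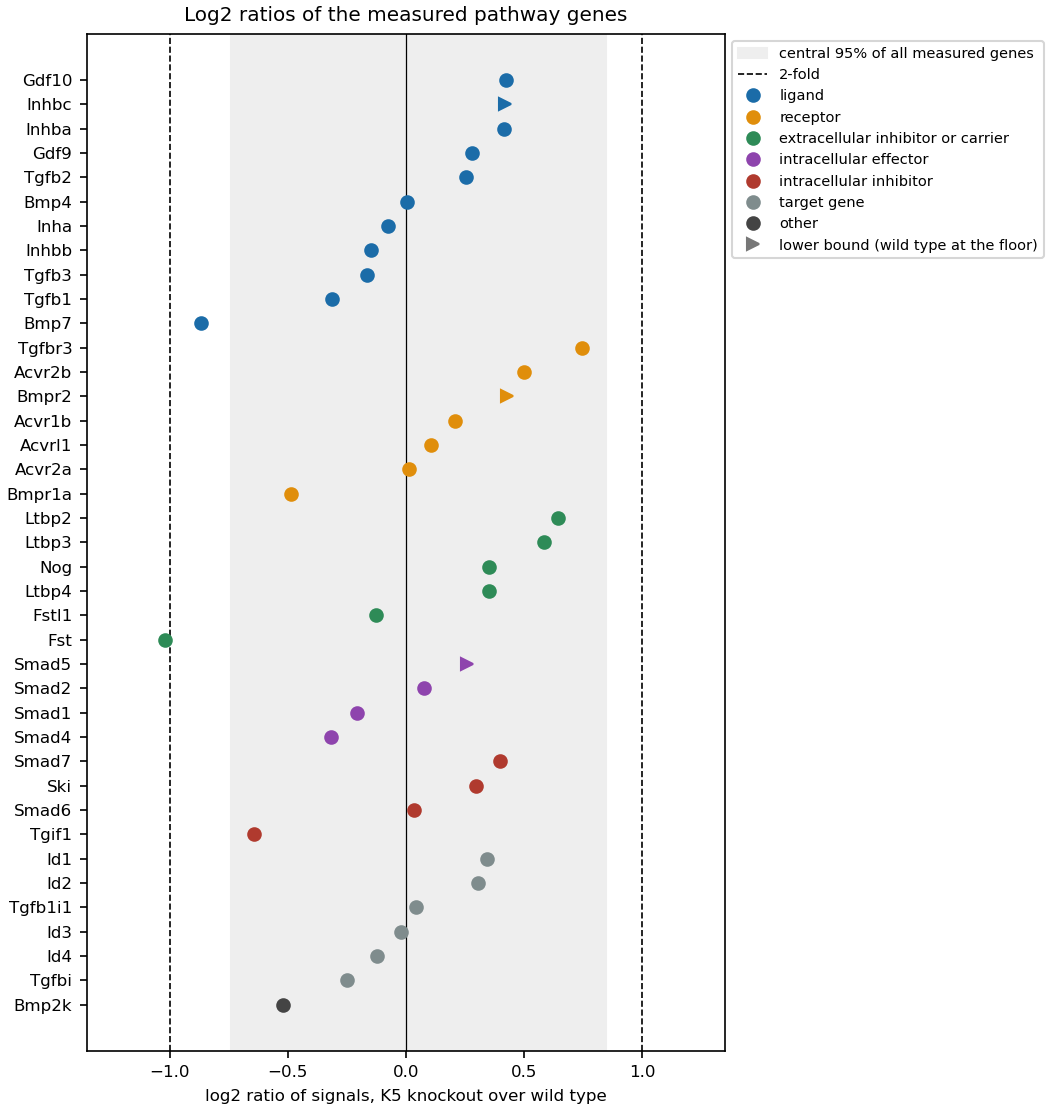
Log2 ratio of signals, K5 knockout over wild type, for the 39 measured pathway genes, coloured by role and ordered by ratio within each role. Triangles are lower bounds, the grey band holds the central 95% of all measured genes and the dashed lines mark 2-fold. Fst and Bmp7 lie left of the band, and every other gene lies inside it.

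The extracellular inhibitors and carriers held both the lowest log2 ratio of the pathway and some of the highest. Of 9 genes 6 were measured, 4 higher and 2 lower in the knockout, with a median log2 ratio of 0.35. That median turned to -0.13 under a floor at the 60th percentile, where 3 genes were measured, and to 0.0 without a filter. Fst, which encodes follistatin, the protein that binds and neutralises activins, read 606 in K5-/- skin and 1228 in wild type skin, 2.03-fold lower, and 0.67% of the measured genes had a lower log2 ratio. Fst has 1 probe set, and it was under 2-fold with a pseudocount of 100 in place of the floor (log2 ratio -0.91). Under a higher floor, the 60th percentile, its knockout signal was raised to the floor. The value there, -0.90, is a bound and cannot show whether Fst reached 2-fold. Follistatin was thus lower in the same comparison in which the activin subunit gene Inhba had a log2 ratio of 0.41 in the main setting. With quantile or lowess scaling the Inhba value was no more than the 0.30 spread between probe sets, so its size is uncertain. The basal keratinocyte markers Trp63, Itga6 and Itgb4 had log2 ratios of -0.54, -0.38 and -0.56 on the same arrays, and their part in the Fst and Bmp7 values was not tested. In RNA of whole skin, fewer cells of a type and less RNA per cell cannot be told apart.

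Fstl1, a secreted glycoprotein related to follistatin, read 8436 in K5-/- skin and 9216 in wild type skin (log2 ratio -0.13). Nog, which encodes the BMP antagonist noggin, read 436 in K5-/- skin and 342 in wild type skin (0.35). The Nog log2 ratio was 0.23 with quantile normalization and 0.24 with the lowess correction. Both values were under the spread between probe sets of a gene. Nog was not measured under a floor at the 60th percentile. In the main setting Nog was thus higher and Fst lower in the knockout, with the size of the Nog difference uncertain. The BMP antagonist genes Chrd (chordin) and Grem1 (gremlin) were at the floor on both arrays.

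The latent TGF-beta binding proteins, which hold TGF-beta in the matrix or assemble elastic fibres, were higher in the knockout in all 3 measured cases. Ltbp2 read 447 in K5-/- skin and 287 in wild type skin, 1.56-fold higher. Ltbp3 read 401 in K5-/- skin and 268 in wild type skin, 1.50-fold higher. Ltbp4 read 3930 in K5-/- skin and 3082 in wild type skin, 1.27-fold higher. None was 2-fold different, and Ltbp2 and Ltbp3 lay close to the floor. Ltbp1 was at the floor on both arrays. Dermal fibroblast and matrix markers were higher on the same array in 6 of 8 cases, with a median log2 ratio of 0.29, and their part in the Ltbp values was not tested.

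Promoter windows of 250 bases before to 50 bases after the transcription start were taken from RefSeq (build GRCm38.p6) and matched by gene ID, which found 55 windows for 43 of the 59 genes. Both strands were searched for 4 motifs of Smad proteins: the short Smad box CAGAC, the palindromic Smad element GTCTAGAC, the GC box GGCGCC known from BMP-responsive promoters, and GCCGNCGC, a GC-rich element first described for the Drosophila Smad protein Mad. Overlapping matches were counted. The short box was in 49.1% of the member windows and in 49.6% of all 32851 windows. GGCGCC was in 29.1% of member windows and 11.9% of all, and GCCGNCGC in 30.9% of member windows and 9.76% of all. Member windows were also richer in G and C, with a median of 64.0% against 52.7% over all windows. A match is a run of letters and not a proven binding site.

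The windows of Ltbp2 and Ltbp3 are shown because these genes had the highest log2 ratios among the carriers. Both are printed 5′ to 3′ on the strand of the gene, with the short Smad box in capitals (as CAGAC or, on the other strand, GTCTG). Ltbp2 lies at chr12:84876442-84876741 on the minus strand and holds 3 matches, and Ltbp3 lies at chr19:5740650-5740949 on the plus strand and holds 2.
Ltbp2: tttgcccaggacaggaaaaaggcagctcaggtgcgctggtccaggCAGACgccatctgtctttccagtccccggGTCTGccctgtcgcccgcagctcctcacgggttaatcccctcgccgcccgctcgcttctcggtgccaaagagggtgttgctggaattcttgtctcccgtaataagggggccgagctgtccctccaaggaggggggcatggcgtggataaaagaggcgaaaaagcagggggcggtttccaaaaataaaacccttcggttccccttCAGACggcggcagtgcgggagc
Ltbp3: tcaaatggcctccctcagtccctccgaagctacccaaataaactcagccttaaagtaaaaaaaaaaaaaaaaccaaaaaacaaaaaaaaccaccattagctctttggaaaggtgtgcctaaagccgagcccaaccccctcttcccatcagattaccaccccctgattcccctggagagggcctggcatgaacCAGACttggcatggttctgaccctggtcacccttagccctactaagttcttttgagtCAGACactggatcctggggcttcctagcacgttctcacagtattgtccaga

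The intracellular effectors showed small and divided differences. Of 5 Smad genes 4 were measured, with a median log2 ratio of -0.07. Smad4, the partner shared by both branches of the pathway, read 2929 in K5-/- skin and 3651 in wild type skin, 1.25-fold lower. Smad1, which carries BMP signals, read 3336 in K5-/- skin and 3856 in wild type skin (log2 ratio -0.21), and its other probe set, with 1464 in K5-/- skin and 1973 in wild type skin, had the same direction (-0.43). Smad2, which carries TGF-beta and activin signals, differed by 0.07 on the log2 scale, with 1559 in K5-/- skin and 1481 in wild type skin. Smad5, a BMP Smad, was above the floor in the knockout alone, with 295 in K5-/- skin and 174 in wild type skin, a log2 ratio of at least 0.26 (0.76 under a floor at the 25th percentile). Smad3 was at the floor on both arrays.

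Of the intracellular inhibitors, Tgif1 was lower and the others that were measured were level or higher. Tgif1, a homeodomain protein that represses Smad target genes, read 1366 in K5-/- skin and 2137 in wild type skin, 1.56-fold lower, and 3.95% of the measured genes had a lower log2 ratio. Smad7, the inhibitory Smad that is induced by TGF-beta and blocks its receptor, read 561 in K5-/- skin and 426 in wild type skin (log2 ratio 0.40). The Smad7 value was 0.28 with quantile normalization and with the lowess correction, and Smad7 was not measured under a floor at the 60th percentile. Ski, a nuclear co-repressor that binds Smads, read 4047 in K5-/- skin and 3298 in wild type skin (0.30). Smad6, the inhibitory Smad of the BMP branch, read 544 in K5-/- skin and 531 in wild type skin (0.03; -0.08 with quantile normalization and -0.07 with the lowess correction), and Skil, a relative of Ski, was at the floor on both arrays. The median of the 4 measured genes was 0.17, or -0.17 over the 2 genes measured under a floor at the 60th percentile, with Tgif1 well apart from the other 3.

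The window of Smad6, at chr9:64022010-64022309 on the minus strand, was the 1 member window with the palindromic Smad element, which 0.213% of all windows hold. It is shown for that reason, with the element in capitals, for a gene whose signal differed by 1.02-fold between the pools.
Smad6: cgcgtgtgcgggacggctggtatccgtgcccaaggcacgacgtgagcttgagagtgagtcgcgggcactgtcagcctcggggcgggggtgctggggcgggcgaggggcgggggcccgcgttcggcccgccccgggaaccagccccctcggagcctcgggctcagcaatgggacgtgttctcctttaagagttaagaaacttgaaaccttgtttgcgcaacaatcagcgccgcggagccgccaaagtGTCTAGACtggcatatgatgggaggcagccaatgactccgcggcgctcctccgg

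The Id genes, which encode inhibitors of basic helix-loop-helix transcription factors and are among the best known direct targets of BMP signals, differed little. All 4 were well above the floor. Id1 read 2519 in K5-/- skin and 1988 in wild type skin, 1.27-fold higher. Id2 read 4531 in K5-/- skin and 3667 in wild type skin, 1.24-fold higher. Id3 read 1711 in K5-/- skin and 1736 in wild type skin (log2 ratio -0.02), and Id4 1373 in K5-/- skin and 1494 in wild type skin (-0.12). The log2 ratios of Id1 and Id2 were just over the 0.30 spread between probe sets of a gene, and the other 2 were below it.

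The windows of Id2 and Id3 are shown as examples, because the Id genes are known targets of BMP signals among the members. Id4 also has a window, with 1 GGCGCC and 1 GCCGNCGC, which is not printed. Id2 lies at chr12:25096043-25096342 on the minus strand and holds 1 GGCGCC. Id3 lies at chr4:136143572-136143871 on the plus strand and holds the short Smad box 2 times. Motif matches are in capitals.
Id2: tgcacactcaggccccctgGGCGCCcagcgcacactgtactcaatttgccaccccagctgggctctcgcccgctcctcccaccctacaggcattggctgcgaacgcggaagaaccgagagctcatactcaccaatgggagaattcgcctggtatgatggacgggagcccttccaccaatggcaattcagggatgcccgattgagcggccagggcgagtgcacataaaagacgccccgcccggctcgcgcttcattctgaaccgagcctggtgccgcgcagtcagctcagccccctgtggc
Id3: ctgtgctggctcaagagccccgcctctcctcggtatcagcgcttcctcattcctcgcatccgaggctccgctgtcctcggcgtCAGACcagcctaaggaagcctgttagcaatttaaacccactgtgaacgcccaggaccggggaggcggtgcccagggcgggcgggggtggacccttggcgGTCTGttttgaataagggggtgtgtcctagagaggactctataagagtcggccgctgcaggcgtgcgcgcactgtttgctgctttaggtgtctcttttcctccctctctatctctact

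The other response genes of the set were close to level as well. Tgfbi, a secreted matrix protein induced by TGF-beta, read 1066 in K5-/- skin and 1266 in wild type skin (log2 ratio -0.25). Tgfb1i1, which encodes the focal adhesion protein Hic-5 and is named for its induction by TGF-beta, read 2499 in K5-/- skin and 2427 in wild type skin (0.04). The median of the 6 target genes was 0.01. Bmp2k, the kinase gene named for BMP2, read 460 in K5-/- skin and 661 in wild type skin, 1.44-fold lower. Under the floor of the 60th percentile its knockout signal was raised to the floor, so the bound of -0.00 there gives no size.

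**Figure D4:**
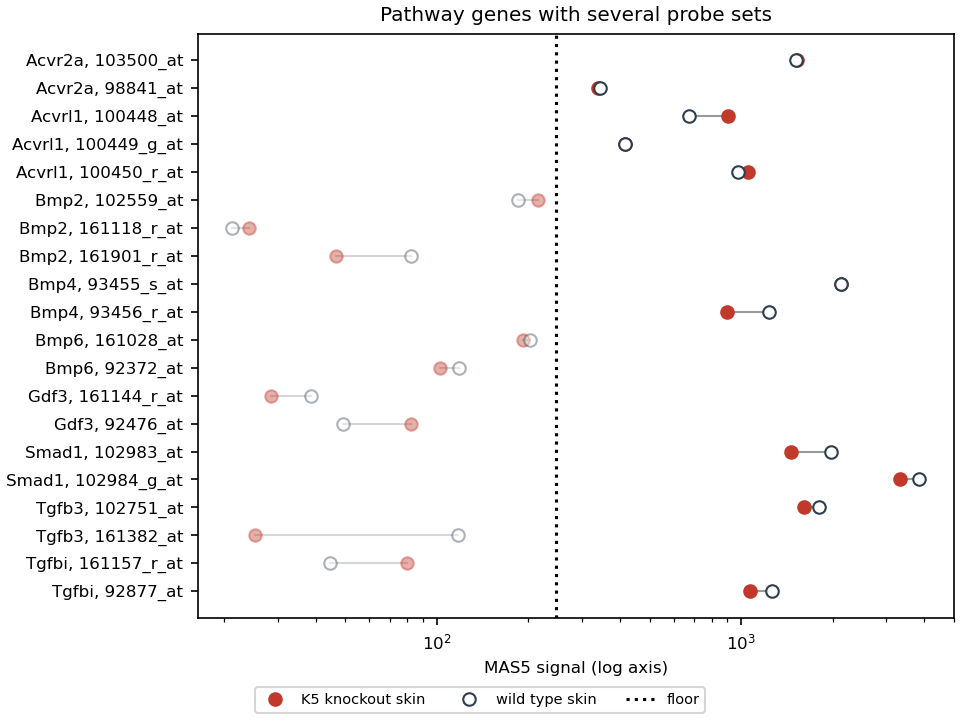
MAS5 signal (log axis) of each probe set of the 9 pathway genes that have several, with a filled point for K5 knockout skin and an open point for wild type skin. The dotted line is the floor, and pale pairs are under it on both arrays. Acvr2a, Acvrl1, Bmp4 and Smad1 have more than 1 probe set above the floor, and those of Acvrl1 and Smad1 share a direction.

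Of 9 pathway genes with several probe sets, 4 had more than 1 above the floor on both arrays, and in 2 of them, Acvrl1 and Smad1, all such probe sets had the same direction, although 1 of the Acvrl1 values was 0.00. The other 2 were Acvr2a, with log2 ratios of 0.01 and -0.02, and Bmp4. Fst, Bmp7, Tgif1, Tgfbr3, Ltbp2 and Ltbp3, the genes with the largest differences, have 1 probe set each, so their values could not be compared within the array.

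Pathway genes outside the set were described through 2 lists. The first holds activating proteases, extracellular modulators and Smad cofactors: of 53 genes 33 were on the array and 26 measured, 18 higher and 8 lower, with a median log2 ratio of 0.10, against 53.9% higher and a median of 0.04 over all measured genes. Of the 26, 3 were above the floor in the knockout alone and 1 in the wild type alone, so the direction of these was set by the filter. In this list 1 of 26 was 2-fold different, against 2.24% of all measured genes. It was Sp1, a general transcription factor that cooperates with Smads, at least 2.29-fold higher, with 566 in K5-/- skin and 223 in wild type skin, and it was not measured under a floor at the 60th percentile. Zeb1, a Smad-binding repressor, was 1.70-fold higher (1247 in K5-/- skin, 734 in wild type skin) and Rock1, a kinase of the cytoskeleton, 1.32-fold higher. Dab2, an adaptor that links receptors to Smads, was 1.55-fold higher by its brightest probe set (3686 in K5-/- skin, 2380 in wild type skin) but had a log2 ratio of -0.47 from plain probe sets only. Strap, which holds TGF-beta receptor signalling back, was 1.54-fold lower (2292 in K5-/- skin, 3535 in wild type skin), Tgif2, a relative of Tgif1, 1.30-fold lower and Fkbp1a, which guards type I receptors, 1.25-fold lower. Tgif1 and Tgif2 were thus both lower in the knockout.

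The second list holds genes that TGF-beta or BMP signals are known to induce or repress in various cells. Of 36 genes 33 were on the array and 30 measured, 25 higher and 5 lower in the knockout, with a median log2 ratio of 0.38, against 0.01 for the target genes within the set and 0.04 for all measured genes, of which 53.9% were higher. Of these 30 genes 2 were at least 2-fold higher, against 1.54% of all measured genes: Ccn1, a matricellular protein, 2.88-fold (3456 in K5-/- skin, 1202 in wild type skin), and Junb, an AP-1 subunit, 2.58-fold (2761 in K5-/- skin, 1072 in wild type skin). Both are also immediate early genes. Gata2, a transcription factor, was 1.91-fold higher (2128 in K5-/- skin, 1116 in wild type skin).

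The lowest of this list were Snai2, a repressor active in keratinocyte migration, 1.72-fold lower (2539 in K5-/- skin, 4372 in wild type skin), Ccn2, a matricellular protein strongly induced by TGF-beta, 1.67-fold lower (612 in K5-/- skin, 1021 in wild type skin), and Acta2, the smooth muscle actin of myofibroblasts, 1.59-fold lower (1606 in K5-/- skin, 2559 in wild type skin). Snai1, a relative of Snai2 in the same list, went the other way, with 930 in K5-/- skin and 549 in wild type skin (log2 ratio 0.76). The cell cycle inhibitor genes Cdkn2b and Cdkn1a had log2 ratios of 0.70 and 0.73, and Col1a1, Col1a2 and Col3a1 of 0.31, 0.34 and 0.27. Genes that TGF-beta is known to induce thus lay at both ends of the list. Of the 30 measured genes 8 are also in a cell type marker list, and without those the median of the other 22 was 0.49, a split made after the values were seen. All 8 macrophage markers were higher on the same array, and their part in this list was not tested.

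**Figure D5:**
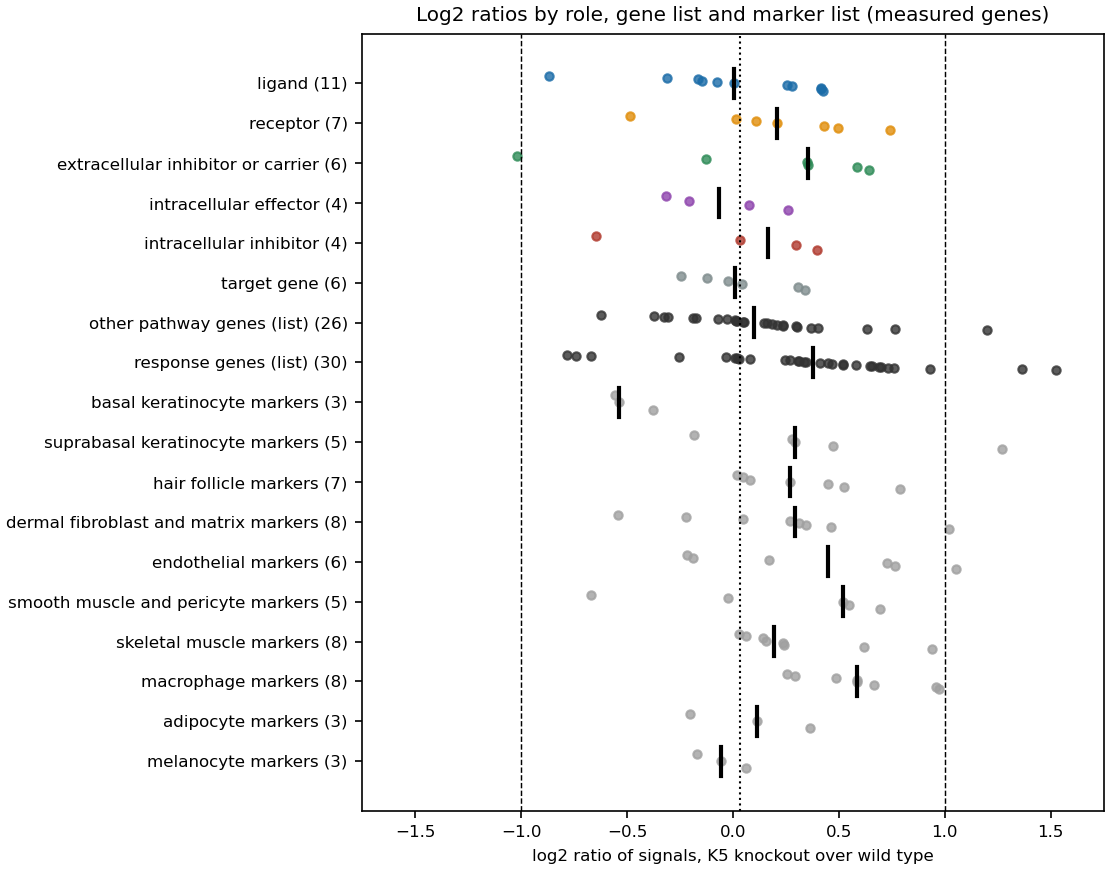
Log2 ratio of signals, K5 knockout over wild type, of the measured genes in each role, in the 2 lists of genes outside the set and in 10 cell type marker lists, with the number of genes in brackets. Points are genes (bounds included), thick bars are medians, the dotted line is the median of all measured genes and the dashed lines mark 2-fold. The response list lies mostly right of the dotted line with a median of 0.38, the target genes of the set centre at 0.01, and the basal keratinocyte markers lie at -0.38 and below.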

How the data were processed

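Expression was read on 2 Affymetrix arrays, 1 for pooled RNA of 6 K5 knockout mice and 1 for pooled RNA of 6 wild type mice. The authors deposited 1 intensity for each probe set. MAS5 is named in the submitters' processing notes, with its version not given in the sources used here. Trimmed means (2%) were 1000.5 for K5-/- and 1000.6 for wild type skin, a common level, and a difference in total RNA per cell cannot be seen.

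Each array was scaled to a common 2% trimmed mean over 12422 non-control probe sets, the floor was set, and log2 was taken (Python 3.11.15, pandas 2.3.3). Genes were named from probe sets with 1 symbol in the platform annotation (10833, with 396 holding several symbols and 1193 none), and the brightest probe set stood for its gene. The entrez identifiers of all 59 members matched a RefSeq table (GRCm38.p6) under the same symbol. The calculation was tested on simulated data, with differences above 2-fold put only into genes well above the floor. That simulation does not show how accurate smaller differences or values near the floor are. With 1 array per group there is no test. The number of arrays limits the precision.

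The members and lists were chosen with earlier results of these data known. All members are named; from the lists, the 2-fold different genes and the 3 highest and 3 lowest above the floor on both arrays, with further genes added after their values were seen. Alternatives were other floors, a pseudocount, other filters, quantile and lowess scaling, and other treatments of several probe sets.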

Additional observations from a re-analysis of the deposited data

How the results depend on the processing

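No paired analysis was possible because each group has 1 array. Of the 39 measured pathway genes, 39 moved by less than the 0.30 spread between probe sets under a pseudocount, quantile normalization or the lowess correction. The same held for the mean over probe sets. Only the 4 genes with more than 1 probe set above the floor can move in that setting. Under the lower floor (25th percentile) Smad5 moved to 0.76, under the higher one (60th percentile, 25 genes measured) Bmp2k had a bound of -0.00, and Acvrl1 moved to 0.43 with plain probe sets only. The count of pathway genes at least 2-fold lower was 0 under the higher floor or the pseudocount, and 1 under the other settings. Under the higher floor Fst had only a bound, so that count does not show a smaller difference. Under the higher floor the median of the extracellular inhibitors and carriers was -0.13 (3 genes) and that of the intracellular inhibitors -0.17 (2 genes), since fewer genes were measured. Without a filter the first was 0.0 over all 9 genes, since those at the floor enter as 0. Over all genes, 205 were at least 2-fold higher and 94 lower under the lower floor, and 44 and 19 under the higher, against 92 and 42. The medians of members, ligands, receptors, effectors, target genes and both lists moved by less than 0.30 in every setting. Among these settings was the response list without marker genes, chosen after seeing the data. The 0.30 limit is a spread of single genes, so a small median can vanish or change sign within it. The receptor median ran from 0.01 without a filter to 0.43 with plain probe sets only. Under the higher floor the member median was -0.003 and the ligand median -0.16. Low signals limit the genes near the floor, among them Ltbp2, Ltbp3, Tgfb2, Inhba, Inhbb, Inhbc, Gdf10, Nog, Bmpr2, Smad5 and Smad7.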
